A study of Mus musculus with 33 samples.

Results

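The BCL2 family sets the threshold at which a cell dies by the mitochondrial route of apoptosis. The RNA of 10 of its genes was followed in mouse liver after activation of MYC, of β-catenin or of both, out of 21671 genes in the deposited expression table. The members were chosen by symbol: the BH3-only genes Bmf, Bcl2l11 (BIM), Bbc3 (PUMA), Pmaip1 (NOXA) and Bid, the effectors Bax and Bak1, and the guardians Bcl2, Bcl2l1 (BCL-XL) and Mcl1. All 10 had a row in the table. In livers on day 4, Bax, Bid, Bbc3 and Bak1 were higher and Bmf was lower than in wild type after activation of MYC and of MYC with β-catenin. Of all genes, 22.3% and 24.1% were called in these comparisons. Only the Bid call with MYC alone and the Bax call with both held in every alternative run and without any single liver. None of the 10 was called with activated β-catenin alone, where 0.132% of all genes were called. Where MYC was added to activated β-catenin, Bax rose and Bmf and Bcl2l1 fell, and the other 7 were not called. In that comparison 21.1% of all genes were called, 16.4% as higher and 4.7% as lower. In tumours Bax, Bid, Bbc3 and Bak1 were higher than in control livers. With MYC alone, the tumour calls of Bbc3 and Bak1 were each lost when 1 tumour was left out and against part of the control livers. Of all genes, 36.2% were called higher in tumours with MYC alone and 42.3% in tumours with both alleles. Bcl2l11 and Bcl2l1 were also called higher in tumours with both alleles, but the Bcl2l1 call was lost on rescaling and without single tumours. Bmf was called in neither kind of tumour. Bcl2 was too low for the main test and was lower in tumours with both alleles in a fit chosen after its values were seen.

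The experiment addressed the joint action of MYC and β-catenin in the liver. In the short-term arm, C57BL/6 mice of 6 to 8 weeks received AAV8-TBG-CRE, an adeno-associated virus whose TBG promoter expresses Cre in hepatocytes, and were killed 4 days later. The 4 groups of 5 livers were wild type (WT), beta-cat Ex3 (an allele that Cre turns into stable β-catenin by removing exon 3, here Ex3), R26-lslMYC (a MYC transgene at Rosa26 behind a Cre-removable stop, here MYC), and R26-lslMYC with beta-cat Ex3 (MYC+Ex3); all 4 received the virus. In the tumour arm, liver nodules were taken from C57BL/6 mice with Alb-CreERT2, a tamoxifen-dependent Cre under the albumin promoter, and either R26-lslMYC (3 MYC tumours) or R26-lslMYC with beta-cat Ex3 (3 MYC+Ex3 tumours). Their controls were 7 wild-type C57BL/6 livers taken 4 days after 4-hydroxytamoxifen (4-OHT), and the labels give no age, tumour size or time since induction for the nodules. The control livers therefore differ from the nodules in the Cre allele, the time since induction and the tissue as well as in the oncogenes. The promoters act in hepatocytes, but whole tissue was sequenced, so RNA of other liver cells is part of every value, and in such bulk samples fewer cells of a type cannot be told apart from less RNA per cell.

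Cells commit to mitochondrial apoptosis when the effectors BAX and BAK assemble in the outer mitochondrial membrane and release cytochrome c. The guardians BCL2, BCL-XL and MCL1 bind the effectors and hold them back, and the BH3-only proteins occupy the groove of the guardians or engage the effectors directly. BH3-only genes act as sensors, among them Bbc3 and Pmaip1 as p53 targets, Bid as the link from death receptors through caspase cleavage, and Bmf and Bcl2l11 as proteins that can be held on the cytoskeleton through dynein light chains. In hepatocytes, loss of BCL-XL or MCL1 is known to cause spontaneous apoptosis, and MYC is known to lower the threshold for apoptosis in many cell types.

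The motif that joins the family is the BH3 core, a leucine, any 3 residues, a glycine or alanine, and an aspartate. It was located in the coding sequences of the GENCODE vM21 transcripts (GRCm38) of the 7 members called in some comparison where they were tested. Bcl2, which the filter on low values left untested in the tumour arm, is not among them. For each of the 7, 60 bases of the coding sequence are shown 5′ to 3′ with the 18 bases of the core in capitals.

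Bmf: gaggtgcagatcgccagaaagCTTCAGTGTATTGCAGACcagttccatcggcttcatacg
Bcl2l11: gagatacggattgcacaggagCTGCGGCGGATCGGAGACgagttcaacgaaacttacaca
Bbc3: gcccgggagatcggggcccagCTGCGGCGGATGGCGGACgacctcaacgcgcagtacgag
Bid: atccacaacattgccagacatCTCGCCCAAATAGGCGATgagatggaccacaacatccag
Bax: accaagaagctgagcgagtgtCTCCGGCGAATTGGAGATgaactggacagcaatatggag
Bak1: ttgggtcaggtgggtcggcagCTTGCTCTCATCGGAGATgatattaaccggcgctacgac
Bcl2l1: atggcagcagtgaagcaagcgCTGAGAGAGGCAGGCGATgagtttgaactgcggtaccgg

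Each of these coding sequences held the pattern once. The pattern is short and occurs in 23.8% of the 21756 genes with a coding sequence, so it describes the members and does not define them. The cores of Bcl2l11 and Bbc3 shared 83.3% of their bases, the highest value among the 9 members compared, and those of Bmf and Bcl2l1 shared 27.8%, the lowest.

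The 20 short-term livers had 3749019 to 7313994 reads in genes, and the 13 libraries of the tumour arm had 6648579 to 9823986. RPKM counts reads relative to gene length and library size, and its scale differs between the arms, so levels are compared within an arm only. The labelled tissue was borne out by hepatocyte markers in every library (summed RPKM of 6 markers 815 to 1400 in the short-term arm and 155 to 253 in the tumour arm). The β-catenin target Axin2 rose from 3.32 ± 0.609 RPKM in wild-type livers to 18.4 ± 5.37 in Ex3 livers (SD, n = 5 each), and the row of mouse Myc cannot check a transgene of another species. The sum of 4 proliferation markers was 2.59 to 10.8 RPKM in wild-type livers, 7.50 to 84.2 in Ex3, 91.6 to 241 in MYC and 160 to 277 in MYC+Ex3 livers. RNA of the skin keratins Krt5, Krt14 and Krt17 was present in 10 short-term livers (summed RPKM 3.95 to 23.8, against at most 0.398 in the other 10). These were 3 wild-type, 3 Ex3, 1 MYC and 3 MYC+Ex3 livers. The keratin-bearing livers had 3749019 to 5095333 reads in genes. The keratin-free livers had 5253915 to 7313994, except MYC liver 3 with 4390164. Keratin RNA thus went with lower depth, and differences by keratin RNA cannot be told apart from differences by depth. MYC liver 5 held both Xist (86.1 RPKM) and the Y-linked Ddx3y (4.74 RPKM), and without it the same number of members, 5, was called between MYC and wild-type livers.

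In wild-type livers the guardian Mcl1 stood far above the other members at 98.9 ± 8.40 RPKM (SD, n = 5), and its libraries did not overlap those of any other member. Below it came Bcl2l1 at 23.5 ± 3.45 RPKM, Bax at 18.8 ± 8.36, Bak1 at 11.7 ± 4.22, Bid at 9.48 ± 2.50, Bmf at 8.81 ± 6.06, Bbc3 at 6.79 ± 4.93, Bcl2l11 at 3.32 ± 1.16, Bcl2 at 2.03 ± 0.348 and Pmaip1 at 1.27 ± 0.443. Each neighbouring pair in this order from Bcl2l1 downwards overlapped between libraries. In MYC livers Bax held the second place at 52.8 ± 22.4 RPKM, above all libraries of Bcl2l1 (20.95 ± 4.89), and in MYC+Ex3 livers likewise at 59.9 ± 6.18 RPKM against 20.8 ± 2.55. Among the members with an RPKM of at least 1 in every short-term liver, Bmf, Bcl2l11, Bbc3, Bid, Bax, Bak1, Bcl2, Bcl2l1 and Mcl1, the thinnest value rested on 25 reads (Bbc3). Pmaip1 reached an RPKM of 1 in 16 of the 20 livers and rested on 8 to 60 reads.

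**Figure D1:**
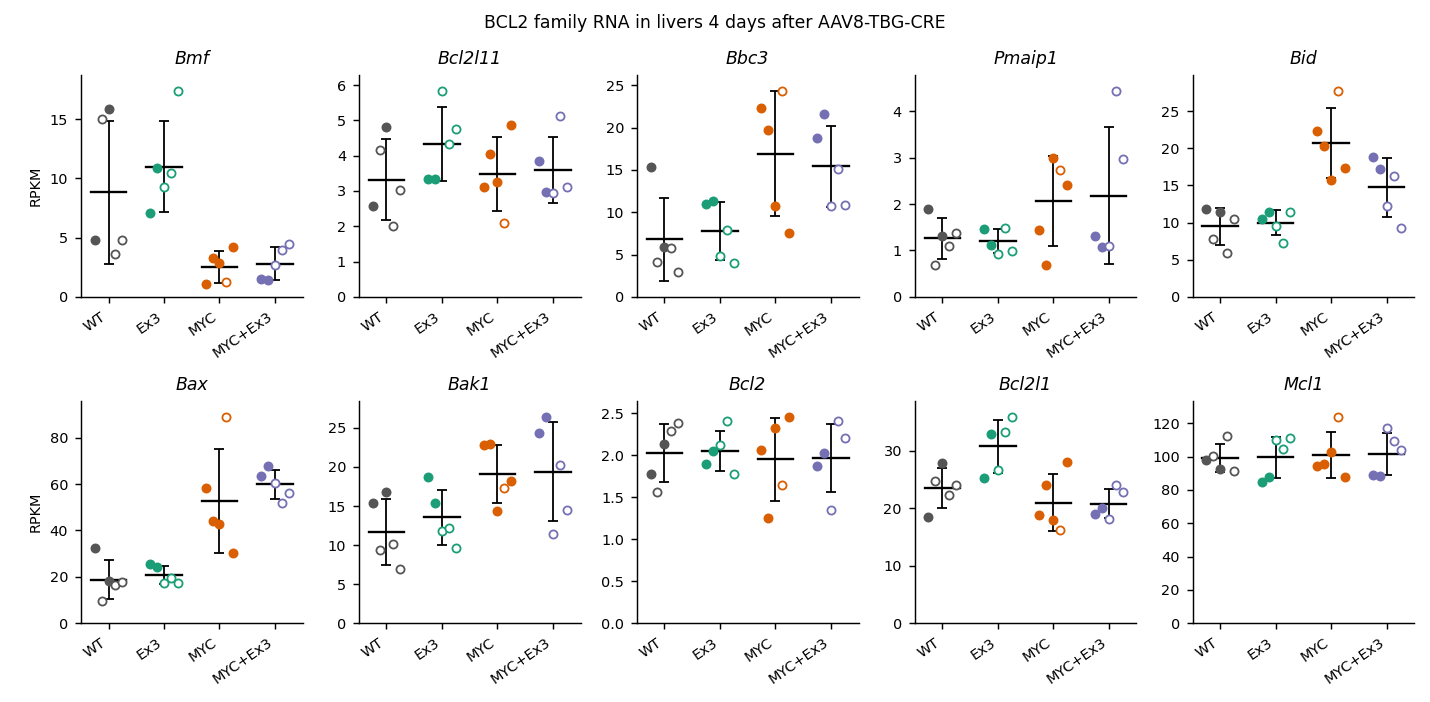
RPKM of the 10 members in the 20 livers taken 4 days after AAV8-TBG-CRE, by genotype (points, single livers; open points, livers with keratin RNA; line and bars, mean and SD, n = 5). The means of Bax and Bid are raised and that of Bmf is lowered in the groups with MYC, whereas Mcl1 lies between 84.7 and 124 RPKM throughout. Single livers overlap wild type for Bax with MYC, for Bid with MYC+Ex3 and for Bmf with either.

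Activation of MYC alone, compared with wild type, was followed by a rise of 4 members and a fall of 1 by limma at an adjusted p under 0.05, while the other 5 were not called. Over the 13688 genes tested, 22.3% were called in this comparison, 16.9% as higher and 5.36% as lower. The median log2 change was 0.22 over the members and 0.07 over all genes tested, on the scale of log2(RPKM + 1) used for every fold change here. With MYC and Ex3 together, 4 members were again higher and 1 was lower than in wild type, beside 24.1% of all genes (17.9% higher, 6.18% lower), with medians of 0.26 over the members and 0.05 over all genes. Both comparisons use the same 5 wild-type livers, so their likeness is not independent. Against Ex3 livers, MYC+Ex3 livers had 1 member higher and 2 lower, beside 21.1% of all genes (16.4% higher, 4.7% lower), with medians of 0.23 and 0.03.

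Among the BH3-only genes, Bmf fell. Its RPKM was 4.82, 14.98, 15.9, 3.58 and 4.83 in the wild-type livers and 7.05, 10.8, 9.24, 10.4 and 17.4 in the Ex3 livers. It was 1.06, 3.31, 2.88, 1.23 and 4.18 in the MYC livers and 1.51, 1.42, 2.71, 3.99 and 4.43 in the MYC+Ex3 livers. Every MYC+Ex3 liver thus lay below every Ex3 liver, where groups did not overlap, in either direction, for 20.3% of all genes. The wild-type livers, by contrast, split into a pair near 15 and 3 livers near the top of the MYC range. The log2 change was -1.34 ± 0.37 (SE) for MYC against wild type (8.81 to 2.53 RPKM, limma adjusted p = 0.0130), -1.22 ± 0.37 for MYC+Ex3 against wild type (adjusted p = 0.0212) and -1.68 ± 0.37 for MYC+Ex3 against Ex3 (adjusted p = 0.00266). The second of these was lost without wild-type liver 2 or 3 or MYC+Ex3 liver 1 or 2 (adjusted p 0.0618 to 0.0660), within the keratin-bearing livers (log2 change -0.70, adjusted p = 0.298) and with a term for sex (adjusted p = 0.0525). The first was lost within the keratin-free livers at a slightly larger size (log2 change -1.44, adjusted p = 0.0713), and the third within the keratin-bearing livers (-1.47, adjusted p = 0.0544).

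Bid, whose cleavage joins death receptors to mitochondria, had RPKM of 11.8, 7.84, 11.4, 5.96 and 10.4 in wild-type livers, of 10.54, 11.3, 9.48, 7.22 and 11.4 in Ex3 livers and of 22.4, 20.3, 15.7, 27.7 and 17.3 in MYC livers. The MYC+Ex3 livers had 18.9, 17.2, 12.2, 16.3 and 9.23. All MYC livers lay above all wild-type and Ex3 livers, as groups did for 13.3% of all genes between MYC and wild type, and the MYC+Ex3 livers overlapped both. MYC raised Bid by 1.06 ± 0.20 on the log2 scale (2.18-fold in mean RPKM, limma adjusted p = 0.000765), and it was the 1 member still called among keratin-free livers (log2 change 0.65, adjusted p = 0.0303). In MYC+Ex3 livers the rise over wild type was 0.58 ± 0.20 (adjusted p = 0.0420), a call lost without wild-type liver 2, 4 or 5 or MYC+Ex3 liver 1, 2 or 4 (adjusted p 0.0526 to 0.121) and with rescaling by the median ratio, no filter, a sex term, only the groups compared or only keratin-bearing livers (adjusted p 0.0621 to 0.141). The rise over Ex3 livers, 0.49 ± 0.20, missed the threshold (adjusted p = 0.0907) and passed it without MYC+Ex3 liver 5 (adjusted p = 0.0253) and among keratin-free livers (adjusted p = 0.0305).

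Bbc3, which encodes PUMA, had RPKM of 15.3, 4.09, 5.92, 5.72 and 2.89 in wild-type livers and of 11.0, 11.4, 4.79, 7.85 and 3.95 in Ex3 livers. It had 22.3, 19.8, 10.7, 24.3 and 7.48 in MYC livers and 18.7, 21.6, 10.8, 15.1 and 10.8 in MYC+Ex3 livers. Wild-type liver 1 stood apart from its group and reached into the range of the MYC livers. Bbc3 rose by 1.27 ± 0.37 with MYC (limma adjusted p = 0.0175) and by 1.21 ± 0.37 with MYC+Ex3 (adjusted p = 0.0211), both against wild type. Keratin-free livers were higher than keratin-bearing ones by 0.59 ± 0.25 (adjusted p = 0.0858, where 25.9% of all genes were called), and males higher than females by 0.80 ± 0.22 (adjusted p = 0.0508, where 3.09% were called). The wild-type group held 2 males, Ex3 and MYC livers 3 each, and MYC+Ex3 livers 4. Among keratin-free livers the MYC change was 0.48 (adjusted p = 0.534) and that of MYC+Ex3 0.99 (adjusted p = 0.169). The MYC call was also lost without wild-type liver 5 or MYC liver 1 or 4 (adjusted p 0.0531 to 0.0558), and the MYC+Ex3 call without wild-type liver 2 or 5 or MYC+Ex3 liver 1 or 2 (adjusted p 0.0532 to 0.0672). Against Ex3 livers, Bbc3 in MYC+Ex3 livers was not called (0.95 ± 0.37, adjusted p = 0.0743), a value that passed without wild-type liver 1, with a keratin term, among keratin-bearing livers and with only the groups compared (adjusted p 0.0306 to 0.0412).

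The remaining BH3-only genes were not called in any short-term comparison. Bcl2l11, which encodes BIM, ran from 2.01 to 5.83 RPKM over the 20 livers, and its change with MYC was 0.06 ± 0.20 (limma adjusted p = 0.870, 95% interval -0.37 to 0.49). Pmaip1, which encodes NOXA, an inhibitor chiefly of MCL1, had a mean of 1.27 RPKM in wild-type livers and 2.06 in MYC livers, with a change of 0.38 ± 0.27 (adjusted p = 0.324, interval -0.17 to 0.94). The groups of both genes overlapped in all 5 comparisons between short-term groups.

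Of the effectors, Bax showed the largest rise in the family. Its RPKM was 32.3, 9.39, 18.1, 16.3 and 17.9 in wild-type livers, 25.5, 24.2, 17.3, 19.6 and 17.1 in Ex3 livers, 58.2, 43.9, 42.9, 88.8 and 30.2 in MYC livers, and 63.4, 67.7, 60.3, 51.7 and 56.3 in MYC+Ex3 livers. Every MYC+Ex3 liver stood above every wild-type and Ex3 liver, as the groups did in either direction for 17.2% and 20.3% of all genes, and MYC liver 5 alone fell below the highest wild-type liver. The SD was 6.18 RPKM in MYC+Ex3 livers and 22.4 in MYC livers at similar means, and 3.90 and 8.36 RPKM in Ex3 and wild-type livers. Bax rose by 1.45 ± 0.26 with MYC (2.81-fold in mean RPKM, limma adjusted p = 0.000334), by 1.71 ± 0.26 with MYC+Ex3 against wild type (3.19-fold, adjusted p = 4.93e-05) and by 1.497 ± 0.255 with MYC+Ex3 against Ex3 (adjusted p = 0.00026). Both MYC+Ex3 calls held in every alternative run and without any single liver; the MYC call held in all but the keratin-free livers, where 2 wild-type livers at 18.1 and 32.3 RPKM remained (log2 change 0.79, adjusted p = 0.0836).

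Bak1, the effector that resides on mitochondria, had RPKM of 15.4, 9.32, 16.8, 10.1 and 6.89 in wild-type livers and of 18.7, 15.4, 11.8, 12.2 and 9.60 in Ex3 livers. It had 22.8, 23.0, 14.4, 17.3 and 18.2 in MYC livers and 24.4, 26.4, 11.5, 20.3 and 14.5 in MYC+Ex3 livers. The groups overlapped, and within wild-type, Ex3 and MYC+Ex3 livers each keratin-free liver stood above each keratin-bearing one. The difference between keratin-free and keratin-bearing livers was 0.60 ± 0.12 (limma adjusted p = 0.00234), close in size to the rise of 0.71 ± 0.24 with MYC (adjusted p = 0.0395) and of 0.69 ± 0.24 with MYC+Ex3 (adjusted p = 0.0436). With keratin RNA as a term in the fit, the rises were 0.47 (adjusted p = 0.0486) and 0.69 (adjusted p = 0.00362), and among keratin-free livers 0.24 (adjusted p = 0.474) and 0.62 (adjusted p = 0.0661). Both calls were also lost without a filter, with a sex term and with only the groups compared (adjusted p 0.0504 to 0.103), and single livers decided them. The MYC call was lost without wild-type liver 2, 4 or 5 or MYC liver 1, 2 or 4 (adjusted p 0.0595 to 0.117), and the MYC+Ex3 call without wild-type liver 2, 4 or 5, Ex3 liver 3 or 4 or MYC+Ex3 liver 1, 2 or 4 (adjusted p 0.0504 to 0.129). Against Ex3, the change in MYC+Ex3 livers was 0.46 ± 0.24 (adjusted p = 0.190).

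Among the guardians, the RPKM of Mcl1 varied little. Mcl1 lay between 84.7 and 124 RPKM in all 20 livers, with group means of 98.9 (WT), 99.5 (Ex3), 101 (MYC) and 101 RPKM (MYC+Ex3). Its change with MYC was 0.02 ± 0.11 (limma adjusted p = 0.924), with a 95% interval of -0.21 to 0.25. Among livers of the same group and keratin status, log2 reads of Mcl1 rose by 0.77 per log2 unit of depth. The medians were 0.27 for the 50 most abundant genes and 1.13 for the other genes averaging RPKM 5 or more. The 50 most abundant genes thus followed depth weakly in these files, and Mcl1 lay between the 2 medians. How far this touches Mcl1 was not tested, so neither its near-constant level nor the interval bounds the change of its RNA in the tissue. Among the called members the same slope was 0.37 for Bax, 0.89 for Bid, 1.15 for Bbc3, 1.94 for Bak1, 2.03 for Bcl2l1 and 2.22 for Bmf. Depth was not a term in the fits, and its part in the changes of these members was not tested. Keratin-bearing livers had more Mcl1 than keratin-free ones, by 0.26 on the log2 scale (free minus bearing -0.26 ± 0.06, limma adjusted p = 0.00287). Keratin-bearing livers were also of lower depth, as given above. Bcl2 ran from 1.26 to 2.45 RPKM over the 20 livers, with a change of -0.05 ± 0.14 with MYC (adjusted p = 0.851, interval -0.34 to 0.25).

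Bcl2l1, which encodes BCL-XL, had RPKM of 18.4, 24.7, 27.9, 22.3 and 23.9 in wild-type livers, 25.3, 32.8, 26.6, 33.1 and 35.8 in Ex3 livers, 18.7, 24.1, 17.9, 16.2 and 27.9 in MYC livers, and 19.0, 20.1, 18.01, 24.0 and 22.9 in MYC+Ex3 livers. Every MYC+Ex3 liver lay below every Ex3 liver, where groups did not overlap, in either direction, for 20.3% of all genes. The wild-type livers overlapped with each other group. MYC+Ex3 against Ex3 was the single called comparison, a fall of 0.54 on the log2 scale (-0.54 ± 0.15, limma adjusted p = 0.0120), which held without any single liver and was lost among keratin-free livers at the same size (-0.54, adjusted p = 0.167). The opposite shift in Ex3 livers against wild type, 0.38 ± 0.15, had an unadjusted p of 0.0188 and did not pass the correction (adjusted p = 0.773). The fall in MYC livers against wild type was -0.17 ± 0.15 (adjusted p = 0.440).

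Ex3 alone changed no member at the threshold, in a comparison where 0.132% of all genes were called by limma, 18 in number and all higher. The smallest adjusted p among the members was 0.773, and 1 of 10, Bcl2l1, had an unadjusted p under 0.05. Adding Ex3 to MYC also gave 0 calls (0.19% of all genes, while groups did not overlap for 0.679%), with 1 member, Bid, at an unadjusted p under 0.05 (0.0299). In that comparison Bid was lower by 0.48 on the log2 scale (-0.48 ± 0.20), with means of 14.8 RPKM in MYC+Ex3 and 20.7 in MYC livers, and Bax was 0.27 ± 0.26 higher (interval -0.27 to 0.80). The interaction term, a test of whether the response to MYC depends on Ex3, gave 0 calls over all genes (0% called, 132 at an unadjusted p under 0.05) and 0 of 10 members at an unadjusted p under 0.05. Its values were -0.57 ± 0.29 for Bid, -0.37 ± 0.21 for Bcl2l1, -0.34 ± 0.53 for Bmf and 0.05 ± 0.36 for Bax.

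**Figure D2:**
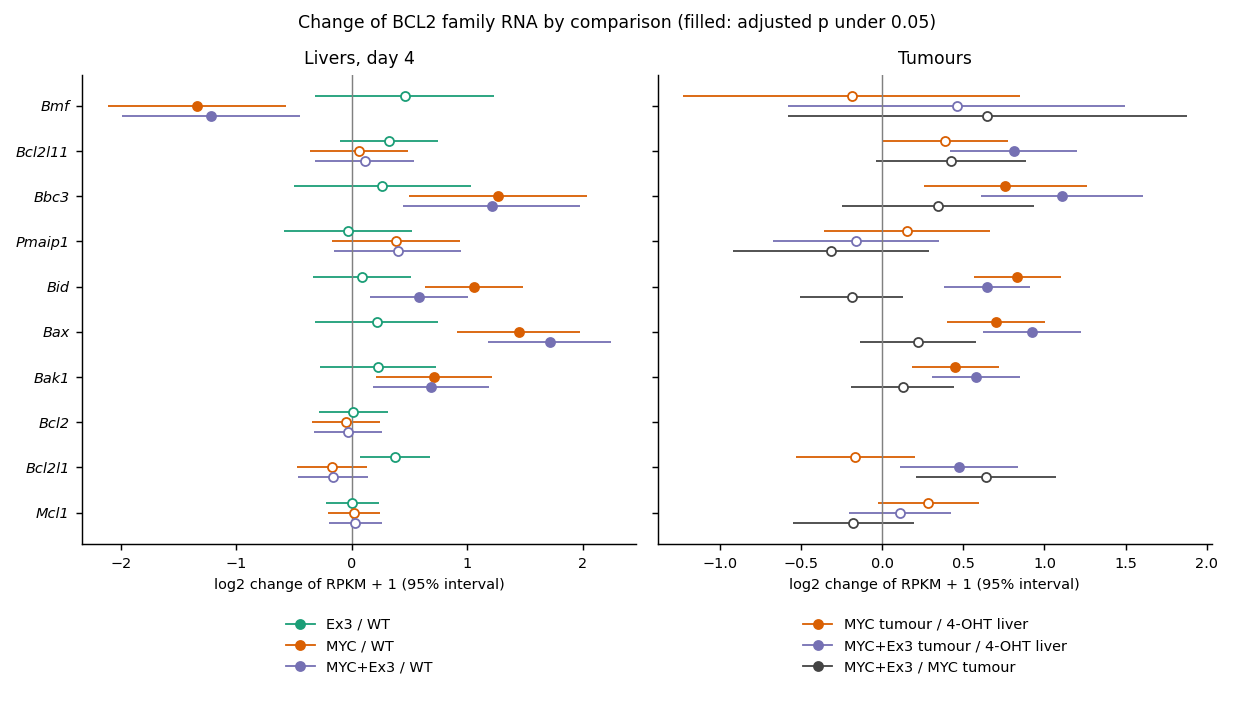
Change of each member on the log2(RPKM + 1) scale with its 95% interval in 3 short-term comparisons (left) and 3 comparisons of the tumour arm (right); filled points have a limma adjusted p under 0.05. Bmf lies at -1.34 and -1.22 in the 2 short-term comparisons with MYC and has intervals across 0 in the tumour arm, where Bcl2 has no point because it did not pass the filter on low values.

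The Bax and Bbc3 promoters were the member promoters that held the E-box, the letters CACGTG that MYC and its partner MAX bind, here searched on both strands around each start in the RefSeq promoter table (GRCm38.p6; the deposited values were counted on mm9, so no position was taken from them). Bax and the third start of Bbc3 are shown for the 100 bases before the start, 5′ to 3′ along the gene, with the E-box in capitals.

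Bax, chr7:45466899-45466998, minus strand: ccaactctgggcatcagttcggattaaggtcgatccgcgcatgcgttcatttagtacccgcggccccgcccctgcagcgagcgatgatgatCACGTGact
Bbc3, chr7:16310331-16310430, plus strand: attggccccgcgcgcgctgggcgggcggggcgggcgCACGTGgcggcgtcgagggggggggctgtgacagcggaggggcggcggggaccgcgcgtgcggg

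The E-box began 9 bases before the start of Bax, with a second one beginning 35 bases after it, and 64 bases before the third of 3 starts of Bbc3. Of 16 promoters of 9 members, 2 held an E-box, against 7.15% of 32851 promoters in the table. The TCF/LEF letters CTTTGAT or CTTTGAA, on either strand, were in 1 of the 16 (Bax, against 8.65% of all), the FOXO letters TGTTTAC in 2 (Bcl2l11 and Bbc3, 3.65%), and the E2F letters TTTCCCGC or TTTGGCGC in 0 (1.56%). The 3 promoters of Bmf held none of these. A match describes the letters in the window and is no measure of binding, and E-boxes outside it were not searched.

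In the tumour arm, MYC tumours had 4 members higher and 0 lower than 4-OHT livers among the 9 tested, in a comparison where 49.8% of 11854 genes were called (36.2% higher, 13.7% lower). MYC+Ex3 tumours had 6 higher and 0 lower, where 60.6% of genes were called (42.3% higher, 18.4% lower). The median log2 change of the members was 0.39 in MYC tumours and 0.58 in MYC+Ex3 tumours, beside 0.19 and 0.23 over all genes tested. After rescaling each library by the median ratio, which brought the medians of all genes to 0.01 and 0.05, 4 and 5 members were higher and 0 lower in either. The shares of all genes given here are from the fits without rescaling. Bcl2 reached an RPKM of 1 in 1 of 13 libraries and was not among the genes tested. Both tumour groups are set against the same 7 livers.

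Bid had a lowest, median and highest RPKM of 3.43, 3.88 and 4.54 in the 4-OHT livers. Its RPKM was 6.98, 6.97 and 9.35 in MYC tumours 1 to 3 and 5.59, 6.66 and 7.82 in MYC+Ex3 tumours 1 to 3. All 6 tumours stood above all control livers. The rise was 0.83 ± 0.12 in MYC tumours (1.99-fold in mean RPKM, limma adjusted p = 0.000115) and 0.65 ± 0.12 in MYC+Ex3 tumours (1.72-fold, adjusted p = 0.000476). Bax likewise ran from 4.83 over a median of 5.57 to 6.92 RPKM in the controls, with 12.4, 7.21 and 10.8 in MYC tumours and 11.3, 12.2 and 11.6 in MYC+Ex3 tumours. No tumour overlapped the controls, with MYC tumour 2 closest to them. Bax rose by 0.70 ± 0.14 (adjusted p = 0.00106) and 0.92 ± 0.14 (adjusted p = 6.82e-05), and neither gene lost a call in any alternative run or without any single library. Groups did not overlap in either direction for 35.2% of all genes with MYC tumours and for 56.1% with MYC+Ex3 tumours.

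Bak1 ran from 5.09 over a median of 5.71 to 7.75 RPKM in 4-OHT livers, with 8.10, 7.60 and 10.1 in MYC tumours and 8.36, 9.19 and 10.9 in MYC+Ex3 tumours. MYC tumour 2 overlapped the highest control. The rise was 0.45 ± 0.13 in MYC tumours (limma adjusted p = 0.00879), lost without MYC tumour 3 (adjusted p = 0.0660), and 0.58 ± 0.13 in MYC+Ex3 tumours (adjusted p = 0.00124). Bbc3 ran from 0.792 over a median of 1.06 to 2.94 RPKM in controls, with 3.86, 2.07 and 2.81 in MYC tumours and 2.67, 4.78 and 4.51 in MYC+Ex3 tumours. Control liver 1, at 2.94 RPKM, was the highest control for Bbc3, Bak1 and Bax and overlapped tumours for Bbc3 and Bak1. Bbc3 rose by 0.76 ± 0.23 in MYC tumours (adjusted p = 0.0149), lost without MYC tumour 1 (adjusted p = 0.0696), and by 1.11 ± 0.23 in MYC+Ex3 tumours (adjusted p = 0.000949). Against the 4-OHT livers whose labels begin with S14 alone, the MYC tumour calls of Bbc3 (adjusted p = 0.108) and Bak1 (adjusted p = 0.0667) were lost.

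Bcl2l11 rose in MYC+Ex3 tumours, where the 3 tumours at 1.57, 2.41 and 3.58 RPKM stood above the 4-OHT livers at 0.614 to 1.39 (median 0.943). In this comparison groups did not overlap, in either direction, for 56.1% of all genes. The change was 0.81 ± 0.18 (2.58-fold in mean RPKM, limma adjusted p = 0.00151). In MYC tumours, at 1.15, 1.84 and 1.72 RPKM, the change of 0.39 ± 0.18 was not called (adjusted p = 0.0912) but passed without MYC tumour 1 (adjusted p = 0.0463) and with a term for sex (adjusted p = 0.0386). The difference between the tumour types, 0.42 ± 0.21, was not called either (adjusted p = 0.330).

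Bcl2l1 was 7.39, 9.96 and 12.9 RPKM in MYC+Ex3 tumours, 6.76, 7.17 and 4.33 in MYC tumours, and ran from 5.75 over a median of 6.43 to 8.87 in 4-OHT livers. The MYC+Ex3 tumours lay above the MYC tumours without overlap, which 16.3% of all genes did in either direction, and overlapped the controls. Against controls the rise was 0.47 ± 0.17 (limma adjusted p = 0.0263), a call lost on rescaling (log2 change 0.27, adjusted p = 0.149), without MYC+Ex3 tumour 2 or 3 (adjusted p 0.0713 and 0.190), against 4-OHT livers labelled S15 alone (adjusted p = 0.143) and with limma voom on recovered reads (adjusted p = 0.0769). Against MYC tumours the difference was 0.64 ± 0.20 with an unadjusted p of 0.00668 and an adjusted p of 0.0988, so it did not pass the correction. In the short-term livers the 2 genotypes had means of 20.8 and 20.95 RPKM (difference 0.01 ± 0.15), and whether the Ex3 difference varies between the arms was not tested.

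Bmf, lower in the short-term livers with MYC, had 1.14, 6.67 and 0.848 RPKM in MYC tumours, 2.75, 2.53 and 7.81 in MYC+Ex3 tumours and 0.844 to 6.49 (median 3.16) in 4-OHT livers. The 3 groups overlapped, with 1 high tumour in either tumour group. Its changes were -0.19 ± 0.48 (limma adjusted p = 0.769) and 0.46 ± 0.48 (adjusted p = 0.424), with 95% intervals of -1.23 to 0.85 and -0.578 to 1.498. The difference between the arms was not tested.

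Mcl1 had 30.1, 19.0 and 17.9 RPKM in MYC tumours, 18.02, 18.3 and 21.2 in MYC+Ex3 tumours and 15.3 to 19.7 in 4-OHT livers, and was called in neither (0.29 ± 0.15, limma adjusted p = 0.118, and 0.11 ± 0.15, adjusted p = 0.531). MYC tumour 1 was the one library well above the rest, and log2 reads of Mcl1 rose by 0.23 per log2 unit of depth in this arm, against 0.87 for other genes. Pmaip1, at 0.158, 1.24 and 2.51 RPKM in MYC tumours and 0.586 to 0.732 in MYC+Ex3 tumours, was not called against 4-OHT livers at 0.600 to 1.14. MYC tumour 1 rested on 10 reads of Pmaip1, and without it the gene passed as higher in MYC tumours (log2 change 0.58, adjusted p = 0.00969) and as lower in MYC+Ex3 than in MYC tumours (-0.74, adjusted p = 0.0323). Apart from that, MYC+Ex3 and MYC tumours differed in 0 of 9 members, where 4.13% of all genes were called (2.02% higher, 2.1% lower).

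Bcl2, the founding guardian, had 0.341, 0.398 and 0.389 RPKM in MYC+Ex3 tumours, 0.817, 0.775 and 0.571 in MYC tumours and 0.558 to 1.02 (median 0.762) in 4-OHT livers. Each MYC+Ex3 tumour lay below every other library of the arm. Over the genes tested, groups did not overlap, in either direction, for 56.1% against 4-OHT livers and 16.3% against MYC tumours. In a fit without the filter on low values, chosen for Bcl2 after its values were seen, the change was -0.36 ± 0.08 against 4-OHT livers (limma adjusted p = 0.00285) and -0.32 ± 0.09 against MYC tumours (adjusted p = 0.101). The first held without any single library (adjusted p 0.00147 to 0.0165). With voom on recovered reads the same changes were -1.19 ± 0.26 (adjusted p = 0.00184) and -0.95 ± 0.30 (adjusted p = 0.0933), on a scale without the RPKM pseudocount. Bcl2 rested on 92 to 288 reads. The summed RPKM of 4 B cell markers was 1.02 to 1.11 in MYC+Ex3 tumours, 1.10 to 6.08 in MYC tumours and 2.09 to 7.05 in 4-OHT livers. The sums for 5 endothelial markers were 14.5 to 16.3, 21.9 to 25.7 and 26.8 to 41.2, and those for 6 macrophage markers 42.0 to 53.2, 25.3 to 93.1 and 89.6 to 117, with none of these markers at 0. In the same order, the sum of 3 neutrophil markers went the other way, at 73.0 to 92.5, 10.1 to 70.6 and 9.75 to 28.7. That of 5 T and NK cell markers was 2.34 to 2.37, 0.627 to 3.64 and 1.45 to 2.62. Within this last sum, Nkg7 in MYC+Ex3 tumours (1.75 to 2.03 RPKM) lay above all 4-OHT livers. Cd3e lay below all of them (0.0383 to 0.0902 against 0.116 to 0.305 RPKM). So did Cd3g (at most 0.127 against 0.219 to 0.391) and Cd4 (0.159 to 0.187 against 0.267 to 0.509), and Cd8a overlapped them. B cells and other lymphocytes express Bcl2, and the part of these markers in its change was not tested.

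**Figure D3:**
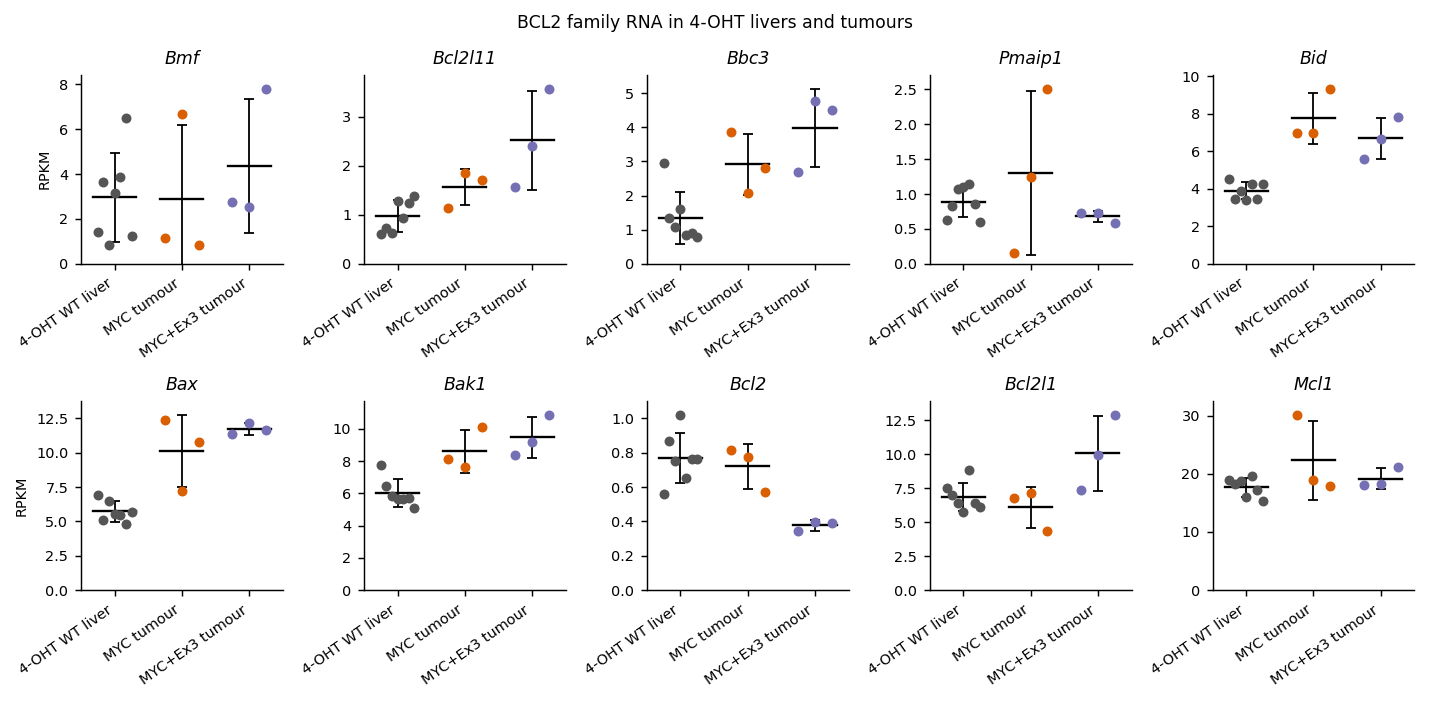
RPKM of the 10 members in 7 wild-type livers 4 days after 4-OHT, 3 MYC tumours and 3 MYC+Ex3 tumours (points, single libraries; line and bars, mean and SD). Bid and Bax stand above all control livers in the 6 tumours, and Bcl2 is lowest in the MYC+Ex3 tumours at 0.341 to 0.398 RPKM.

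The authors' deposited table of comparisons called the same numbers of members in the short-term arm, 4 higher and 1 lower with MYC and with MYC+Ex3 against wild type and 0 with Ex3 and with Ex3 added to MYC. In the tumour arm the authors' deposited table called 4 higher in MYC tumours and 6 higher and 2 lower in MYC+Ex3 tumours, the lower pair being Bcl2 (log2 fold change -1.25, adjusted p = 6.75e-08) and Pmaip1 (-0.58, adjusted p = 0.0409). It also called Bcl2 as lower in MYC+Ex3 than in MYC tumours (log2 fold change -0.87, adjusted p = 0.0309 in the authors' deposited table). The share of all genes called there was not counted, so these counts show nothing particular to the family.

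The rest of the apoptosis machinery was followed in 6 further lists. Their counts are to be read against the shares of all genes called: 16.9% higher and 5.36% lower with MYC, 17.9% and 6.18% with MYC+Ex3, 36.2% and 13.7% in MYC tumours, and 42.3% and 18.4% in MYC+Ex3 tumours. These shares belong to the fits without rescaling, and none is given here for the counts after rescaling. Among 12 tested relatives of the BCL2 family, the fold with MYC was called higher for Bcl2l12 (0.65 ± 0.22, limma adjusted p = 0.0385) and lower for the mitophagy receptor Bnip3l (-0.47 ± 0.14, adjusted p = 0.0205), and both were called with MYC+Ex3 too; after rescaling, 1 was higher and 2 lower with MYC. In MYC tumours 4 of 9 tested relatives were higher, near the 36.2% of all genes, and 0 lower, namely Bcl2a1b (0.786 to 2.85 RPKM), the BH3-only gene Bik (1.41 to 3.65 RPKM), the BAX-like gene Bok and Bcl2l12. Bcl2a1b has close copies in the genome, so its reads may be shared with them. After rescaling, 3 were higher and 2 lower, and Bok was not among them. In MYC+Ex3 tumours Bcl2l13 alone was called, as higher, and Bik was lower there than in MYC tumours (-0.87 ± 0.20, adjusted p = 0.0296).

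Of 13 genes of the apoptosome and caspases, 3 rose (Htra2, Apaf1 and Casp2) and 1 fell (Casp9) with MYC and with MYC+Ex3 against wild type. In these fits without rescaling, 16.9% and 17.9% of all genes were higher. After rescaling, 3 rose and 2 fell with MYC, and 2 rose and 1 fell with MYC+Ex3. Htra2, a mitochondrial protease that antagonises the inhibitors of apoptosis, went from 6.55 to 15.4 RPKM with MYC (1.09 ± 0.25, limma adjusted p = 0.00371), and Apaf1, the scaffold of the apoptosome, from 3.70 to 6.17 RPKM (0.59 ± 0.19, adjusted p = 0.0295). Casp9, the initiator caspase that APAF1 activates, went the other way, from 8.22 to 5.23 RPKM (-0.56 ± 0.16, adjusted p = 0.0176). In MYC tumours 5 were called higher, beside 36.2% of all genes, and in MYC+Ex3 tumours 8, beside 42.3%, or 4 and 5 after rescaling. Htra2 (2.07 to 8.41 RPKM in MYC tumours, adjusted p = 3.32e-05), Dffa (4.01 to 8.80) and Casp2 (2.32 to 4.65) had the largest rises among them.

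Of 6 inhibitors of apoptosis, Birc5 rose and Birc3 fell in each short-term comparison of MYC with its absence, and after rescaling Xiap was called lower with MYC as well. Birc5, which encodes survivin and is also a mitotic gene, went from 1.34 to 16.9 RPKM with MYC (2.88 ± 0.31, limma adjusted p = 3.69e-06) and from 1.59 to 6.72 RPKM in MYC tumours (1.58 ± 0.14, adjusted p = 1.45e-06). Birc3 fell with MYC (-0.41 ± 0.11, adjusted p = 0.00924) but was higher in MYC+Ex3 tumours (0.77 ± 0.15, adjusted p = 0.000639). Naip2 was lower in MYC tumours (-0.52 ± 0.10, adjusted p = 0.000985) and in MYC+Ex3 tumours (-0.90 ± 0.10, adjusted p = 5.97e-06), and Xiap in MYC tumours (-0.40 ± 0.13, adjusted p = 0.0221).

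In the death receptor arm, 1 of 10 genes rose and 2 fell with MYC (1 and 3 after rescaling). The death receptor Tnfrsf10b went from 2.97 to 5.61 RPKM (0.72 ± 0.15, limma adjusted p = 0.00186), and Cflar, the inhibitor of caspase-8 activation, from 46.7 to 31.3 RPKM (-0.58 ± 0.14, adjusted p = 0.00404). Ripk1 fell as well (-0.35 ± 0.09, adjusted p = 0.0115). Tumours of either kind had 1 of 9 higher and 5 lower (1 and 6 after rescaling), with list medians of -0.47 and -0.59 against 0.19 and 0.23 for all genes. In MYC+Ex3 tumours the ligand Tnfsf10 (-1.42 ± 0.16), Fas (-1.02 ± 0.17), Cflar (-0.96 ± 0.14) and Tnfrsf1a (-0.74 ± 0.09) fell, each at an adjusted p of 0.000168 or less. The B cell, macrophage and endothelial sums were also lower and the neutrophil sum higher in these tumours than in 4-OHT livers, as given for Bcl2, and their part was not tested.

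Among 10 tested factors that act on BH3-only genes, 3 rose and 1 fell with MYC, beside 16.9% and 5.36% of all genes. Trp53, which encodes p53, an activator of Bbc3, Pmaip1 and Bax, went from 9.32 to 21.6 RPKM (1.14 ± 0.24, limma adjusted p = 0.00163), E2f1 from 2.15 to 7.99 RPKM (1.55 ± 0.24, adjusted p = 9.8e-05) and Jun from 16.9 to 31.8 RPKM (0.94 ± 0.29, adjusted p = 0.0247). Foxo4 fell slightly (-0.34 ± 0.12, adjusted p = 0.0454), and with MYC+Ex3 it was called after rescaling only. In MYC tumours 4 were higher and 0 lower, and in MYC+Ex3 tumours 5 and 0, close to the 36.2% and 42.3% of all genes called higher, or 2 and 1, and 3 and 1, after rescaling. Trp53 was higher in both (1.13 ± 0.14, adjusted p = 2.7e-05, and 1.05 ± 0.14, adjusted p = 2.1e-05), as was E2f1, and Jun in MYC+Ex3 tumours (1.28 ± 0.32, adjusted p = 0.00321).

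Of 12 tested partners and turnover factors, 2 rose and 1 fell with MYC (2 and 3 after rescaling). Dynll1, a dynein light chain that binds BIM, went from 16.7 to 34.4 RPKM (1.02 ± 0.18, limma adjusted p = 0.0003), and Vdac2, the outer membrane channel that holds BAK, from 61.8 to 84.7 RPKM (0.46 ± 0.09, adjusted p = 0.000833). Tmbim6, a membrane protein that restrains BAX-induced death, fell (-0.28 ± 0.09, adjusted p = 0.0271). In MYC tumours 3 were higher and 0 lower and in MYC+Ex3 tumours 7 and 1, where 49.8% and 60.6% of all genes were called, but after rescaling 1 and 4, and 2 and 5. Vdac2 remained among the genes called higher in both, with a change of 0.66 ± 0.12 in MYC+Ex3 tumours (adjusted p = 0.000268) as deposited. With Ex3 alone, 0 genes of the 6 lists were called.

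**Figure D4:**
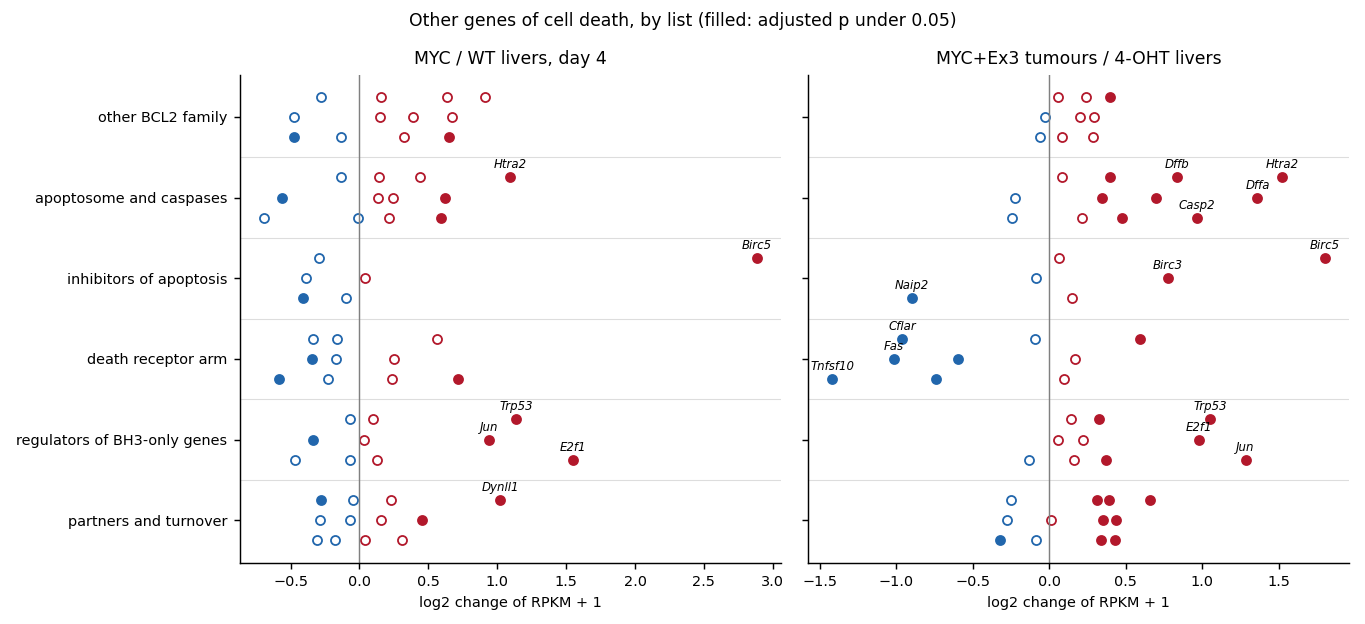
Log2 change of tested genes of the 6 further lists (1 gene is not shown) in MYC against wild-type livers on day 4 (left) and in MYC+Ex3 tumours against 4-OHT livers (right); filled points have a limma adjusted p under 0.05, red higher and blue lower, and called genes changed by over 0.75 are named. Birc5 lies farthest to the right in both panels at 2.88 and 1.80, and 5 of 9 genes of the death receptor arm are called lower in the tumours.

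The genes most like the called members over the libraries of an arm are given as a description, by Pearson's r of log2(RPKM + 1). Over the 20 short-term livers and 9106 genes, Bmf was closest to Stard5 (r = 0.96), Cyth1 (0.92) and N4bp2l1 (0.91), and Bbc3 to Mtfmt (0.95), Lsm7 (0.94) and Car14 (0.94). Bax was closest to Dtymk, Lsm4 and Lzic (0.97 each), Bak1 to Ppp1r12c, Abcb8 and Ehmt2 (0.96 to 0.97), Bid to Snx8, Acbd6 and Wrb (0.89 to 0.90), and Bcl2l1 to Pde4dip, Fam214a and Pik3ap1 (0.83 to 0.84). Over the 13 libraries of the tumour arm and 5254 genes, Bax was closest to Rbm28, Rsl24d1 and Pafah1b2 (0.98 each), Bid to Fastk, Tdp2 and Phpt1 (0.97 each) and Bak1 to Ash2l, Trnau1ap and Atpaf1 (0.97 to 0.98). Bbc3 was closest there to Maf1, Sept10 and Snx24 (0.95 to 0.96), Bcl2l11 to Atxn2l, Sf1 and Ehd1 (0.89 to 0.90), and Bcl2l1 to Ncoa4, Srsf5 and Bnip3l (0.90 to 0.92). The points share groups, depth and, in the short-term arm, keratin RNA.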

How the data were processed

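Total RNA of 33 mouse livers and liver tumours was sequenced from stranded libraries, per the labels' protocols. The authors deposited RPKM per gene; TopHat2 2.0.8, featureCounts 1.4.5-p1, DESeq2 and the mm9 build are named in the submitters' processing notes, with no settings. The authors' deposited table also holds log2 fold changes and adjusted p-values of their own comparisons. Reads behind the RPKM were recovered as whole multiples of 1 read for 100% of 20485 genes above 0 (tolerance 0.001) and served for depth and 1 alternative; 0 columns belonged to no sample.

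Samples were grouped by their titles and genotype labels, which give separate animal numbers; replicate numbers pair no samples, and p-values measure the spread between these mice. RPKM + 1 was taken to log2 and tested with limma 3.58.1 (R 4.3.3, empirical Bayes with trend, two-sided, Benjamini-Hochberg over all genes tested, with 0.05 as the threshold for a call). Genes that reached an RPKM of 1 in fewer than 3 libraries of a fit were dropped. The 20 short-term livers and the 13 libraries of the tumour arm were fitted apart, in 9 comparisons. A pseudocount of 1 understates the change of low genes. The procedure was tested on simulated data.

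All 10 members are named. From each further list and arm at most 4 genes are named, those with the largest change among called genes, and for each called member the 3 genes most like it with a mean RPKM of at least 5. The members and lists were chosen with earlier results of these data known. Alternatives were a pseudocount of 0.1, no filter, a filter at RPKM 5, median ratio rescaling, terms for sex (read from Xist and Ddx3y) and for keratin RNA (summed RPKM over 1), subsets of libraries, the groups compared only, each library left out and, added after seeing the data, limma voom on recovered reads. Rescaling moved the median of all genes in the tumour arm from 0.19 and 0.23 to 0.01 and 0.05. The promoter of Pmaip1 was not used here. Of the apoptosome and caspase list, 1 gene and the counts of lower genes in the tumour arm are not reported here.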

Additional observations from a re-analysis of the deposited data

Results flagged for a closer look

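Within-group spread was examined for 50 groups of 4 to 10 libraries of a member, of which 2 had a library set apart by a gap too wide for the group's range, where chance alone sets apart about 1 in 20. Both were Bbc3: wild-type liver 1 of the short-term arm had 15.3 RPKM, above the other 4 wild-type livers, and 4-OHT liver 1 had 2.94 RPKM, above the other 6. Without the first, the rise of Bbc3 with MYC was 1.58 in place of 1.27 on the log2 scale (limma adjusted p = 0.00242).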

How the results depend on the processing

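No alternative reversed the direction of a call. With MYC against wild type, 5 members were called as reported, 1 among keratin-free livers, and 3 to 5 without single livers (3 without wild-type liver 5 or MYC liver 1 or 4). With MYC+Ex3 against wild type, 5 were called as reported, 3 without a filter, with only the groups compared, among keratin-free livers and among keratin-bearing livers, 2 with a sex term, and 1 to 5 without single livers (1 without wild-type liver 2 or MYC+Ex3 liver 1 or 2, 2 without wild-type liver 5, 3 without wild-type liver 4 or MYC+Ex3 liver 4). With MYC+Ex3 against Ex3, 3 were called, 5 with a keratin term, and 3 to 4 without single livers. In MYC tumours 4 were called, 2 against 4-OHT livers labelled S14, and 3 to 5 without single libraries, and in MYC+Ex3 tumours 6, with 4 to 7 over the alternatives (4 of 6 tested at RPKM 5, 7 of 10 tested without a filter, 5 after rescaling, with voom and against S15 livers) and 5 to 6 without single libraries. MYC+Ex3 against MYC tumours gave 0, and 0 to 1 without single libraries (1, Pmaip1, without MYC tumour 1); the other 3 comparisons gave 0 throughout. Subsets of libraries hold fewer samples; for the other settings the cause was not tested. A library left alone in a group was assumed to vary like the others. Depth limits Pmaip1 most, with 8 to 60 reads in short-term livers. No paired analysis was possible because replicate numbers are only names.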
